A study of Rattus norvegicus with 8 samples.

Results

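Chemokines are small secreted proteins that call leukocytes along a gradient by binding G protein-coupled receptors on them. In the brain most are made at low level at rest and are switched on within hours by microglia, astrocytes, endothelial cells or neurons after injury or seizures, largely through the NF-kappa-B and AP-1 transcription factors. A few, such as Cxcl12 and the neuronal chemokine Cx3cl1, are made all the time. Seizure-induced Ccl2 and related ligands are known for drawing monocytes and other leukocytes toward the hippocampus.

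The genes described are Ccl2, Ccl3, Ccl4, Ccl7, Ccl20, Cxcl1, Cxcl2, Cxcl10, Cxcl12 and Cx3cl1, 10 of the 35199 gene names on the array. They were found as the non-control spots that carry one of these names in the array design. The genes were chosen with their difference between the groups in view, so their own differences and calls are given as a description, with no test, and carry no evidence of their own.

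RNA came from the dentate gyrus (DG), the granule cell field of the hippocampus, of 8 adult female Sprague-Dawley rats. All 8 had been ovariectomized and had undergone status epilepticus (SE), a state of continuous seizures, after kainic acid, a glutamate receptor agonist. The 4 COS rats had been injected with oil and the 4 CES rats with estradiol (E2). By the labels the rats received 16 mg/kg of kainic acid and SE was stopped at 5 h with pentobarbital, and CES rats were given 4 doses of 2 microg of estradiol spaced by 24 h, 2 of them before SE and 2 after it. The study's methods give another kainic acid dose, diazepam as the drug that ended SE, all injections before SE and differing times of tissue collection. Nothing in the files shows which version is right. Rats without SE were not analysed here, so a level in COS cannot be set against a brain without seizures. The DG was taken whole, so a lower level can stand for fewer cells of a type or for less RNA per cell, and these cannot be told apart.

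Each array held a Cy3-labeled and a Cy5-labeled rat of the same group, with replicates 1 and 2 on one array and 3 and 4 on the next, and all 4 arrays shared 1 slide. Levels are log2 of the background-subtracted signal relative to the median valid spot of the channel, where a valid spot has a foreground of at least 2 times its local background. Valid spots made up 74.6% to 88.9% of the 43379 non-control spots in COS and 70.7% to 81.5% in CES. Genes with 1 or more spots valid in every rat were taken as quantified, 21332 names in all. The groups were compared by limma, with Benjamini-Hochberg adjustment over these genes, and called means an adjusted p under 0.05. By this test 6038 genes, 28.3%, were lower in CES and 1238, 5.80%, were higher, and the median log2 difference was −0.25, with a median standard error of 0.20. Under 4 other scalings that array-wide median moved to between 0.08 and 0.15, so for main results the difference is also stated against it. Of the markers of the tissue, C1ql2, Calb1 and Neurod1 were well above background in all 8 rats, and the Prox1 and Tdo2 probes in none.

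The stretch before the start of a gene holds many of the sites at which NF-kappa-B and AP-1 act, and RefSeq promoters of the rat build GRCr8 were at hand for 7 of the 10 genes. The 250 bases upstream of the annotated start are shown for the neutrophil attractants Cxcl1 (minus strand, chr14:17479322-17479571) and Cxcl2 (minus strand, chr14:17467256-17467505), the interferon-induced Cxcl10 (plus strand, chr14:15988816-15989065) and the monocyte attractant Ccl7 (plus strand, chr10:67513845-67514094), whose signal was low in 3 of the 4 CES rats. That of Cxcl12 (plus strand, chr4:152060531-152060780), whose signal was high in all 8 rats, is shown for contrast. Capitals mark the matches to an NF-kappa-B motif and to TGANTCA, the AP-1 motif, on either strand. The sequences run 5′ to 3′ toward the start of the gene.
Cxcl1: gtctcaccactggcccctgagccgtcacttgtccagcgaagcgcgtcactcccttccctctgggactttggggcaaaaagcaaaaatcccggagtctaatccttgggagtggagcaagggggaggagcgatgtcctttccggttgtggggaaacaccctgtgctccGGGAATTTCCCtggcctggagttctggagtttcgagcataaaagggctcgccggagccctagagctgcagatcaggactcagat
Cxcl2: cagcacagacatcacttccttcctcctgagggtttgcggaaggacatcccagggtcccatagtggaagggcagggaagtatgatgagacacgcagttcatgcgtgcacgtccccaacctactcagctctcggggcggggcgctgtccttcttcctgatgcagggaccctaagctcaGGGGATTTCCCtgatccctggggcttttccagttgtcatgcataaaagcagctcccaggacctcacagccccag
Cxcl10: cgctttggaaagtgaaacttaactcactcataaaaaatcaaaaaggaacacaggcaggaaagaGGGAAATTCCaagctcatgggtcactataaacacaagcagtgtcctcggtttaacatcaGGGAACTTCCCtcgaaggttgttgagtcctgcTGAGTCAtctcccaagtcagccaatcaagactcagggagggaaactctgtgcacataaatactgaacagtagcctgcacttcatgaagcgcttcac
Ccl7: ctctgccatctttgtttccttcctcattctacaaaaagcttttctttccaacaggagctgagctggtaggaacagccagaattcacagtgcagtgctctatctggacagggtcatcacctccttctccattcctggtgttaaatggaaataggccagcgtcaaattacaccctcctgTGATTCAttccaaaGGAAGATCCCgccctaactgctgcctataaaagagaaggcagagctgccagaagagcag
Cxcl12: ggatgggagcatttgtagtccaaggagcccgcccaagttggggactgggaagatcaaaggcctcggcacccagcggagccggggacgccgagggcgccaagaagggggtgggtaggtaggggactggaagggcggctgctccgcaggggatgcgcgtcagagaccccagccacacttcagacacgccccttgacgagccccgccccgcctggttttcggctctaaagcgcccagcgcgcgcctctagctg

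An NF-kappa-B motif was found in 5 of the 7 promoters, those of Ccl7, Ccl20, Cxcl1, Cxcl2 and Cxcl10, and in 6.33% of 33469 rat promoters of the same length. In Cxcl1 overlapping matches covered bases 84 to 74 before the start, and in Cxcl2 bases 74 to 64. In Ccl20 the match lay 89 to 80 bases before the start. Cxcl10 had matches at 187 to 178 and, overlapping, at 128 to 118 bases, and the AP-1 motif at 96 to 90. Ccl7 held the AP-1 motif at 73 to 67 bases, just before its NF-kappa-B match at 59 to 50. The AP-1 motif was thus in 2 of the 7 promoters, against 6.34% of all, and none of these matches overlapped one of the other motif. An interferon response motif was found in Cxcl10 alone among the 7, and in 3.41% of all promoters. The palindromic estrogen response motif, its half-sites allowed any 3 bases between them, was in none of the 7 and in 0.0239% of all. The promoters of Cxcl12 and Cx3cl1, the genes with a high signal in all 8 rats, held no NF-kappa-B match in this window. The letters TATAAA, the TATA box motif, lay 34 to 29 bases before the start in Ccl7. In Cxcl10 they lay at 162 to 157 bases and in Cx3cl1 at 78 to 73. They were found in 12.9% of all promoters. A match is a stretch of letters and not a measured binding site.

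**Figure D1:**
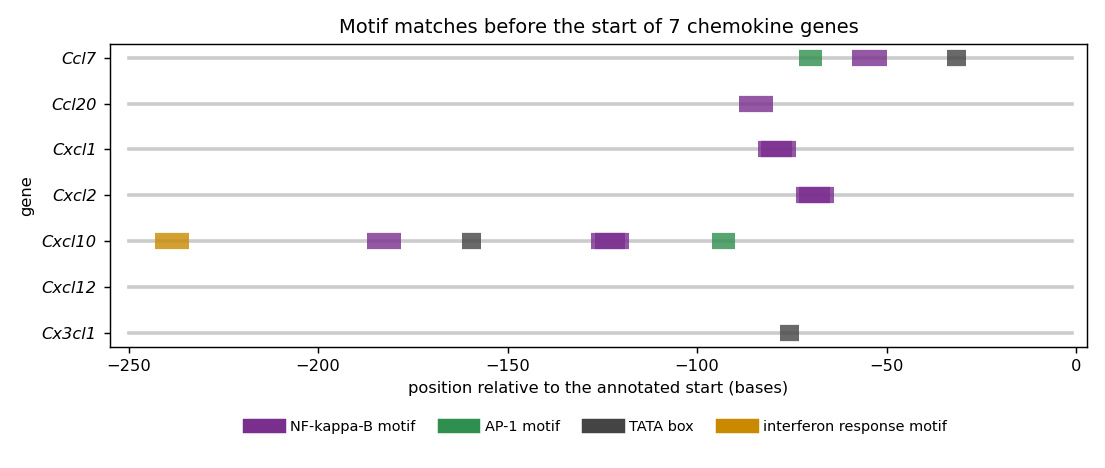
Motif matches on either strand in the 250 bases before the annotated start (x axis, bases) of the 7 chemokine genes (y axis) with a RefSeq promoter. Bars mark matches to the NF-kappa-B, AP-1 and interferon response motifs and to the letters TATAAA, labeled TATA box. The NF-kappa-B bars lie in 5 genes, and Cxcl12 has no match.

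The scanner software's mark for a spot well above background, which is set for each dye channel, was taken first. In COS replicates 1 to 4 the mark was set for 10, 10, 9 and 10 of the 10 chemokine genes, and in CES replicates 1 to 4 for 2, 9, 2 and 3. By this count CES replicate 2 was like the COS rats, and the other CES rats were not. Over all names the share well above background with Cy3 was 50.9% and 42.6% in COS and 44.5% and 43.9% in CES. With Cy5 this share was 58.3% and 54.3% in COS and 62.4% and 59.1% in CES. The 62.4% belonged to CES replicate 2 and was the highest of all 8 rats. The share of valid spots was lower in CES within each dye. With Cy3 it was 77.2% and 81.5% in CES and 86.9% and 88.9% in COS. With Cy5 it was 73.4% and 70.7% in CES and 80.1% and 74.6% in COS. Whether signal strength, dye or the high share of CES replicate 2 had a part in the marks was not tested. Ccl2, Ccl3, Ccl4, Ccl7, Cxcl1 and Cxcl2 were well above background in all 4 COS rats and, among the CES rats, in replicate 2 alone. For Cxcl2 the log2 level of this Cy5-labeled rat was −3.24, beside −3.25 in the unmarked, Cy3-labeled CES replicate 3. Cxcl10 was marked in all COS rats and in CES replicates 2 and 4. Its foreground was 145 and 148 scanner units in the unmarked Cy3 replicates 1 and 3 of CES. In the marked Cy5 replicate 4 of CES it was 111. Ccl20 was marked in 3 COS rats, all but replicate 3, and in no CES rat. The unmarked COS replicate 3, labeled with Cy3, had the highest log2 level of Ccl20 in COS, −0.38. The marked COS replicate 4, labeled with Cy5, had the lowest, −2.002. A missing mark thus does not mean a lower signal when rats of different dyes are compared. Cxcl12 and Cx3cl1 were marked in all 8 rats. A mark in at least 3 COS rats and at most 2 CES rats was thus held by 8 of the 10 genes, and by 2005 of all 35199 names, 5.70%.

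**Figure D2:**
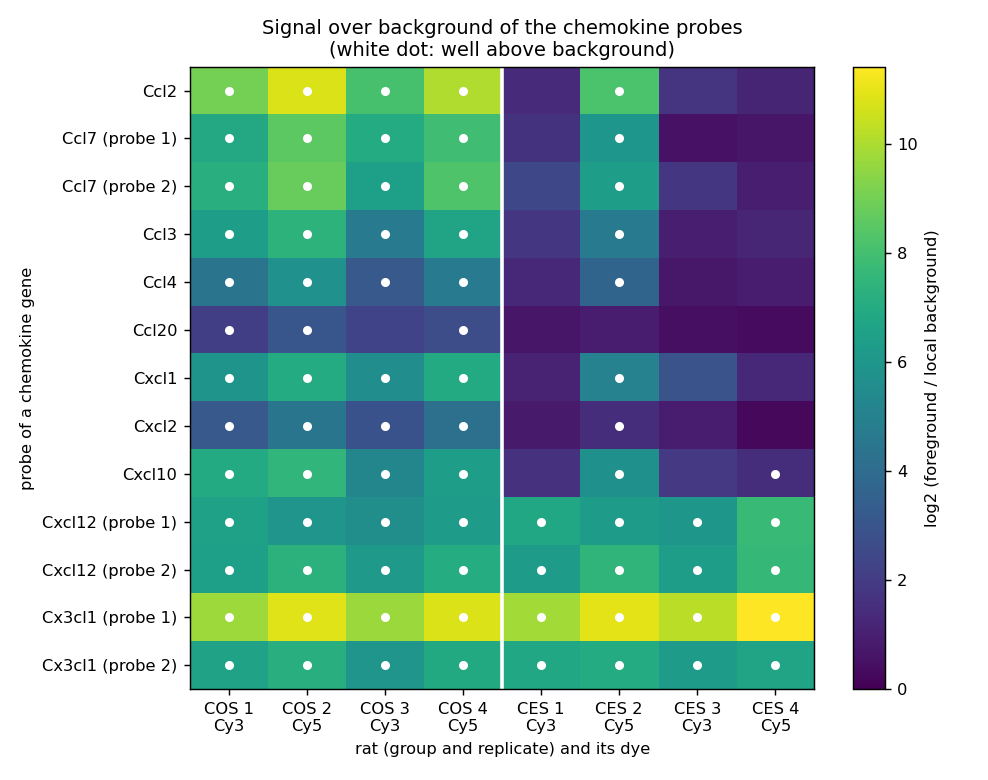
Log2 of foreground over local background (colour) of each chemokine probe (y axis) in each rat with its dye (x axis); a white dot marks a probe well above background. The first 9 rows are bright in COS and in CES replicate 2 for most probes and dark in the other CES rats, while Cxcl12 and Cx3cl1 are bright throughout.

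CES replicate 2 stood apart from the other CES rats in several of the chemokines, and values without it are given beside theirs. Over all quantified genes, the median of its level minus the mean of the other CES rats was −0.28. Its level exceeded that mean by over 2 on the log2 scale in 163 of the 21332 genes, 0.764%, and lay below it by that much in 0.717%. These shares were not computed for the other CES rats. For Ccl2 the excess was 6.30, for Cxcl10 3.54 and for Cxcl1 3.21, and 99.99%, 99.9% and 99.8% of genes had a smaller value. Its array was shared with CES replicate 1, which did not stand apart in these genes.

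**Figure D3:**
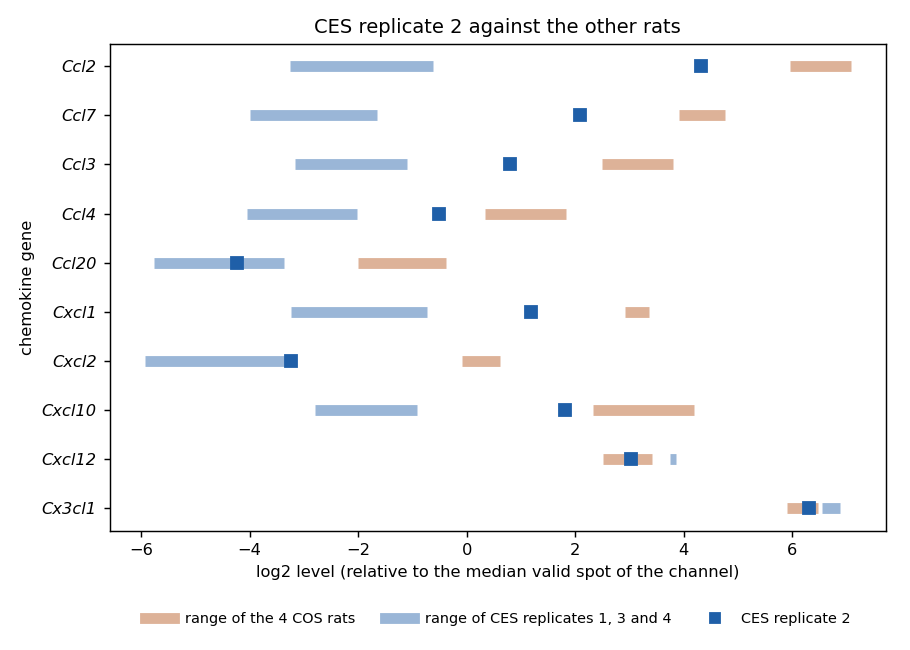
Log2 levels (x axis, relative to the median valid spot of the channel) of the 10 chemokine genes (y axis), as the range of the 4 COS rats, the range of CES replicates 1, 3 and 4, and CES replicate 2 as a square. For Ccl2, Ccl7, Ccl3, Ccl4, Cxcl1 and Cxcl10 the square lies between both ranges, for Ccl20 and Cxcl2 it lies with the CES range or at its edge, and for Cxcl12 and Cx3cl1 within the COS range.

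Ccl2 and Ccl7 attract monocytes through the receptor Ccr2, and their probes lie 10.72 kb apart on chromosome 10 of rn4, the build of the array's annotation, at chr10:70257919-70257978 for Ccl2 and, for the Ccl7 probe that starts first, chr10:70268643-70268702. The foreground of the Ccl2 probe, averaged over its 10 spots, was 25830, 72500, 13890 and 45240 scanner units in COS replicates 1 to 4, and 120, 11411, 117 and 78.0 in CES replicates 1 to 4. The local background of the chemokine probes was 18.0 to 57.0, so the low CES values were close to it. Over the 3 of these spots that were valid in all 8 rats, the log2 level of Ccl2 was 6.46, 7.08, 5.96 and 6.16 in COS (6.42 ± 0.49, SD, n = 4) and −2.05, 4.32, −0.63 and −3.25 in CES (−0.40 ± 3.33, SD, n = 4). Every CES rat lay below every COS rat. CES minus COS, the log2 difference came to −6.82 (standard error 1.26), or −6.56 against the array-wide median, and −8.48 without CES replicate 2. For the mean signal over all 10 spots, CES replicate 1 was higher, at −1.86, and CES replicate 3 was lower, at −1.33. Without the filter the log2 difference was −6.91. The 10 spots of the probe spread by an SD of 0.20 to 0.27 in the COS rats and CES replicate 2, and by 0.30 to 0.84 in the other CES rats.

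Ccl7 had 2 probes whose starts lie 31 bases apart, and with no spot valid in all 8 rats it was measured without the filter. Its levels were 4.44, 4.77, 4.13 and 3.90 in COS and −1.66, 2.08, −2.58 and −4.00 in CES on the log2 scale. The groups did not overlap, and the order of the CES rats resembled that of Ccl2 in that replicate 2 was highest and replicate 4 lowest. The log2 difference was −5.85 (standard error 1.12), or −7.18 without CES replicate 2, and the single probes gave −5.72 and −6.05.

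Ccl3 and Ccl4, which attract monocytes and T cells, lie as a second pair on chromosome 10, with probes 15.7 kb apart at chr10:71744611-71744670 and chr10:71760267-71760326. Ccl3 was at 3.80, 3.48, 2.64 and 2.48 in COS and at −1.09, 0.79, −2.01 and −3.17 in CES, a log2 difference of −4.47 (standard error 0.78), or −5.33 without CES replicate 2. Ccl4 was at 1.82, 1.82, 0.79 and 0.33 in COS and at −2.03, −0.51, −2.62 and −4.04 in CES, a log2 difference of −3.49 (standard error 0.72), or −4.23 without that rat. Neither gene had overlapping groups, and in both COS replicates 1 and 2, which shared an array, lay above COS replicates 3 and 4.

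Ccl20, which draws Ccr6-bearing lymphocytes and dendritic cells, gave a dim signal also in COS. Its foreground at chr9:82443347-82443406 was 238, 325, 229 and 212 scanner units in COS and 67.2, 69.9, 67.7 and 46.1 in CES. Its levels were −0.83, −1.01, −0.38 and −2.002 in COS and −3.37, −4.24, −3.45 and −5.77 in CES. COS lay above CES in every rat, and CES replicate 2 did not stand out, with −0.05 against the mean of the other CES rats. The log2 difference of −3.15 (standard error 0.38) rests on CES signals that were not well above background, and it was −0.82 after normexp background correction and −3.39 without CES replicate 2.

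**Figure D4:**
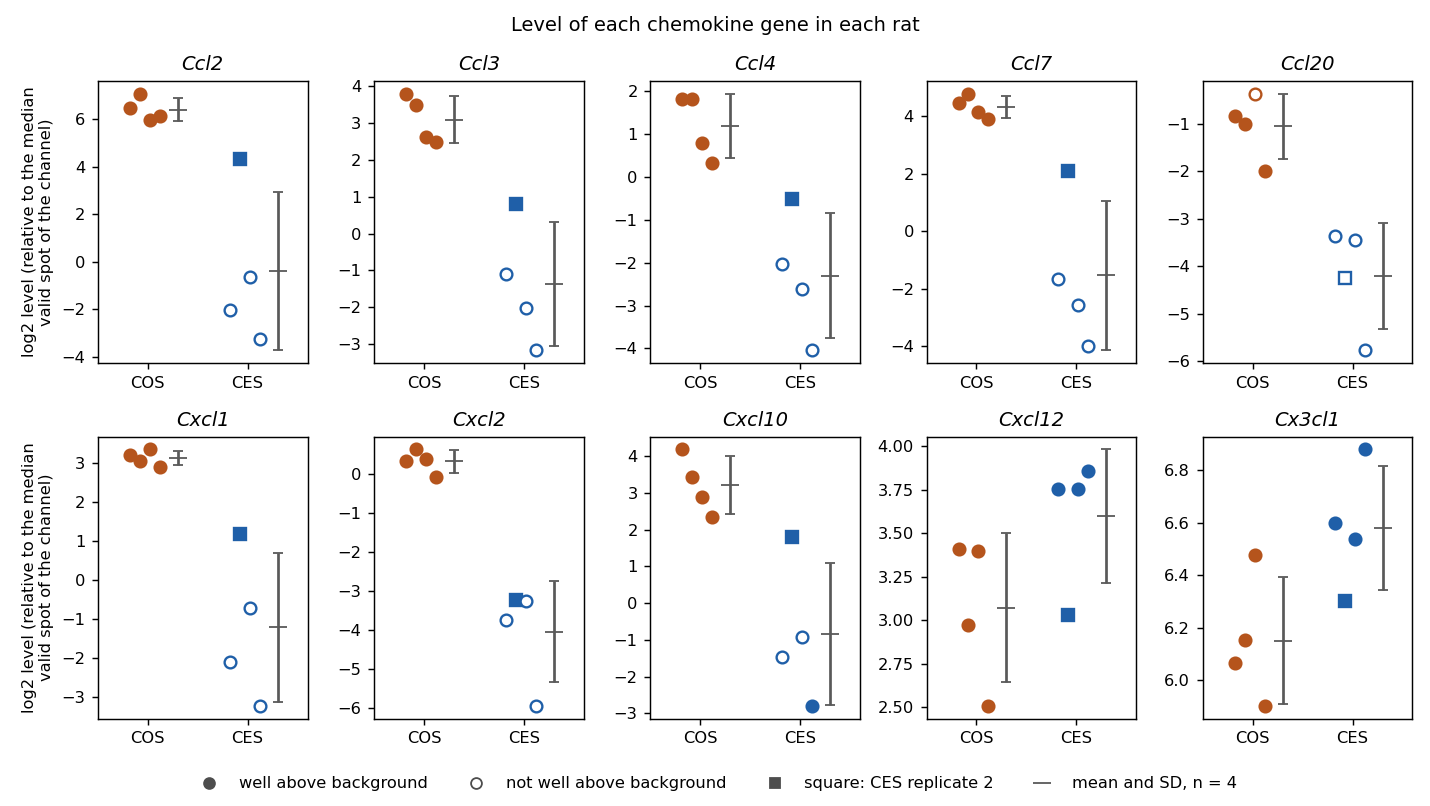
Log2 level of each of the 10 chemokine genes in each rat (y axis, relative to the median valid spot of the channel, a scale of its own per panel) by group (x axis), with the mean and SD of the 4 rats. Filled points were well above background, and the square is CES replicate 2; in the first 8 genes all CES points lie below all COS points, and in Cxcl12 and Cx3cl1 the groups overlap.

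Cxcl1 and Cxcl2 attract neutrophils through Cxcr2, and their probes lie 13.2 kb apart on chromosome 14, at chr14:18690468-18690527 and chr14:18677236-18677295. Cxcl1 was at 3.22, 3.05, 3.35 and 2.91 in COS, an SD of 0.19 that was larger than that of only 5.89% of genes. In CES it was at −2.10, 1.19, −0.73 and −3.23, an SD of 1.90 that was larger than that of 99.6% of genes. The groups did not overlap, and the log2 difference was −4.35 (standard error 0.75), or −4.10 against the array-wide median, and −5.30 without CES replicate 2. Cxcl2 was at 0.33, 0.62, 0.38 and −0.08 in COS and at −3.73, −3.24, −3.25 and −5.93 in CES, a log2 difference of −4.35 (standard error 0.55). In Cxcl2 the excess of CES replicate 2 was 1.07, while in Cxcl1 it was 3.21. The Cxcl2 foregrounds in CES were 47.4, 103, 47.5 and 49.1 scanner units, so its difference depends on the background, and normexp gave −1.54. Leaving out CES replicate 2 gave −4.79.

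Cxcl10 is induced by interferons and by NF-kappa-B, attracts T cells through Cxcr3, and lies at chr14:17267994-17268053, 1409 kb from Cxcl2. Its level was 4.18, 3.44, 2.88 and 2.33 in COS and −1.47, 1.81, −0.92 and −2.79 in CES. The groups did not overlap, although CES replicate 2 lay closer to the lowest COS rat than to any other CES rat. CES lay below COS with a log2 difference of −4.05 (standard error 0.82), or −3.80 against the array-wide median, and −5.11 without CES replicate 2. Among the COS rats Cxcl10 spread widely, with an SD of 0.79 that was larger than that of 89.1% of genes.

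Cxcl12, which holds progenitors and leukocytes in place through Cxcr4 and guides granule cell precursors, behaved in another way. Its level, averaged over 2 probes, was 3.41, 2.97, 3.396 and 2.51 in COS and 3.75, 3.03, 3.75 and 3.86 in CES. CES replicates 1, 3 and 4 lay above all COS rats and CES replicate 2 lay among them, so the groups overlapped. The log2 difference was 0.53 (standard error 0.21), or 0.78 against the array-wide median, and 0.66 without CES replicate 2. The probes, which the array's annotation assigns to different transcripts of the gene, were not alike. The probe at chr4:153510217-153510276 gave a log2 difference of 1.06, with levels from 1.91 to 2.88 in COS and of 3.66, 2.32, 3.69 and 3.91 in CES, whereas the probe 5988 bases away at chr4:153516205-153516264 gave 0.19.

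Cx3cl1, or fractalkine, is held on the surface of neurons, binds Cx3cr1 on microglia and is shed by Adam10 and Adam17. It was at 6.07, 6.15, 6.48 and 5.90 in COS and at 6.60, 6.30, 6.54 and 6.88 in CES. Only CES replicate 2 lay below the highest COS rat, replicate 3. CES exceeded COS by 0.43 on the log2 scale (standard error 0.19), or 0.68 against the array-wide median, and by 0.52 without CES replicate 2. The bright probe at chr19:10667029-10667088 gave 0.46 and the dim probe at chr19:10667691-10667750 gave −0.04. Under the 4 other scalings the log2 difference was 0.74 to 0.83 for Cx3cl1 and 0.85 to 0.93 for Cxcl12, and limma called both genes higher.

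Of the 10 genes, 5 were quantified in all 8 rats, Ccl2, Cxcl1, Cxcl10, Cxcl12 and Cx3cl1, and limma called the first 3 of these lower in CES, where 28.3% of all genes were called lower and 34.1% were called in either direction. Without the filter on valid spots all 10 had a value. The first 8 genes had every CES rat below every COS rat, where this held for 12.5% of 35104 genes, and none of the 10 had every CES rat above every COS rat, where this held for 0.966%. Among the 21332 quantified genes these shares were 19.8% and 1.61%. Since the genes were chosen on this contrast, nothing is read from these shares. The filter keeps a gene only if it has signal in the CES rats, so the 5 genes it removed, Ccl3, Ccl4, Ccl7, Ccl20 and Cxcl2, include none of the genes with signal in every rat. Without COS replicate 3 limma called 0 of the 5 quantified genes, with 4 at an unadjusted p under 0.05, while the log2 differences moved little, to −6.71 for Ccl2, −4.24 for Cxcl1 and −4.10 for Cxcl10.

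The direction was the same within each dye. Between the Cy3-labeled rats, replicates 1 and 3 of each group, the log2 difference was −7.55 for Ccl2, −4.70 for Cxcl1 and −4.73 for Cxcl10. Between the Cy5-labeled rats, replicates 2 and 4, it was −6.08, −4.00 and −3.38 for the same genes. For Ccl3, Ccl4, Ccl7, Ccl20 and Cxcl2 it ranged from −6.40 (Ccl7, Cy3) to −2.80 (Ccl20, Cy3). For Cxcl12 it was 0.35 with Cy3 and 0.70 with Cy5, and for Cx3cl1 0.30 and 0.56.

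Because the CES probes were mostly not well above background, their ratios, apart from those of Ccl20 and Cxcl10, are given as bounds that hold for one normalization. They were computed after plain background subtraction with loess and Aquantile normalization by raising each CES value to at least the dimmest signal that was well above background in its channel. COS exceeded CES at least 85.4-fold for Ccl2, 33.2-fold for Ccl7, 14.8-fold for Ccl3, 14.6-fold for Cxcl1, 5.80-fold for Ccl4 and 5.25-fold for Cxcl2, each with 1 of 4 CES rats well above background. For Ccl20, marked in none of the 4 CES rats and in 3 of the 4 COS rats, the ratio was 2.41-fold. It is not a strict bound, since the COS mean includes a rat that was not well above background. For Cxcl10, with 2 of 4 CES rats well above background, no CES value was raised, so its 13.1-fold is the measured ratio. Without CES replicate 2 the bound was 258-fold for Ccl2, 71.5-fold for Ccl7, 25.8-fold for Cxcl1 and 24.1-fold for Ccl3. For Ccl4 and Cxcl2 it was 8.24-fold and 5.50-fold. The ratios of Cxcl10 and Ccl20 were then 25.3-fold and 2.16-fold. With normexp, which adds an offset to every signal, the log2 differences were smaller than these bounds and ratios for all 8 genes, from −5.42 for Ccl2 to −0.82 for Ccl20.

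The genes whose levels over the 8 rats followed each quantified chemokine most closely were found by the root mean square distance of log2 levels centred on each gene's mean. Levels were not scaled, so the genes nearest to Ccl2, Cxcl1 and Cxcl10 are ones with a large group difference too. The chemokines were chosen on that difference, so nothing is read from these distances or from the medians beside them. Nearest to Ccl2 were Atf3, a stress-induced transcription factor, at 1.00, Sprr1al at 1.04 and Cd14, the lipopolysaccharide co-receptor, at 1.23, against a median distance of 3.92 over all genes. Among the 3 genes nearest to Cxcl1 were Cyr61, a matricellular protein, at 0.37 and the gp130 cytokine Clcf1 at 0.45, against a median of 2.39. Cxcl10 had Procr at 0.43, Clcf1 at 0.49 and Lcn2, an iron-carrier-binding protein, at 0.50 as nearest genes, against 2.32. For Cxcl12 the nearest were TC621979, Lgi3 and TC610031, at 0.10, 0.10 and 0.11, and for Cx3cl1 M17068, Enc1 and Chchd10, at 0.09, 0.10 and 0.10, against a median of 0.57 for both.

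The other chemokine ligands included lower and higher genes. Of 28 ligands on the list 24 were on the array, 10 of which were well above background in no rat, and 12 were quantified. Limma called 6 of the 12 lower in CES and 1 higher, where 28.3% and 5.80% of all genes were called, and their median log2 difference was −1.02, or −0.77 against the array-wide median. Ccl6 was lower with a log2 difference of −1.83 (adjusted p = 0.00621), Ccl17, a ligand of Ccr4, with −1.73 (adjusted p = 0.00914) and Cxcl3, a further neutrophil attractant, with −1.66 (limma, adjusted p = 0.00294). Cxcl3 was marked as well above background in 3 rats of COS and 2 of CES, with levels of −0.11, −1.04, −0.08 and −1.33 in COS and −2.02, −2.91, −1.55 and −2.71 in CES. As in Ccl20, CES replicate 2 had no excess, and it was the lowest CES rat. Ccl27 was higher with 0.54 (limma, adjusted p = 0.0459). The count of 7 called was 3 without COS replicate 3, 4 without CES replicate 1 and 1 after normexp. Ccl6 and Ccl17 lost their calls without COS replicate 3, Ccl17 also without CES replicate 1 and under the 4 other scalings, and Ccl27 without any single COS rat or CES replicate 1.

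Ccl12, a further Ccr2 ligand, was not quantified but was well above background in all 4 COS rats and in 1 CES rat, and Cxcl11, which like Cxcl10 binds Cxcr3, in 3 COS rats and 1 CES rat. Cxcl9, the third Cxcr3 ligand, was well above background in no rat, nor was Cxcl5.

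Most receptors gave little signal. Of 23 receptors on the array 10 were well above background in no rat, among them Ccr2, Ccr6 and Cxcr2, the receptors of Ccl2, Ccl20 and Cxcl1. Ccr1, which binds Ccl3 and Ccl7, was marked in 3 COS rats and 1 CES rat, and Cxcr3, the Cxcl10 receptor, in 2 COS rats and no CES rat. Of the 9 receptors quantified limma called 2 lower in CES and 0 higher, where 28.3% of all genes were called lower and 5.80% higher, with 4 lower and 0 higher at an unadjusted p under 0.05, and their median log2 difference was −0.43, or −0.17 against the array-wide median.

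Ccrl2, a non-signalling receptor, was lower with a log2 difference of −0.86 (limma, adjusted p = 0.0168). The call was lost under 10 of the alternatives, among them the 4 other scalings and leaving out COS replicate 1, COS replicate 3 or CES replicate 1. The receptors of Cxcl12 and Cx3cl1 were well above background in all 8 rats. Cxcr4 differed by −0.51 (limma, adjusted p = 0.122), the scavenger Ackr3, named Cxcr7 on the array, by −0.57 (limma, adjusted p = 0.0603) and Cx3cr1 by −0.43 (limma, adjusted p = 0.107). None of these passed the threshold, and the 2 receptors called under the main setting were 0 without any of the 3 rats named above and 4 without CES replicate 2. Under each of the 4 other scalings no receptor was called lower and 1 was called higher, Ccr1l1, whose probe was well above background in no COS rat and 1 CES rat.

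Many genes on the list of chemokine inducers and the NF-kappa-B pathway, called inducers for short, were lower as well. Of the 30 inducers and members of the NF-kappa-B pathway on the list, 24 were quantified, and limma called 19 lower in CES and 0 higher, against 28.3% and 5.80% of all genes, with 20 lower and 0 higher at an unadjusted p under 0.05. Their median log2 difference was −1.27, or −1.01 against the array-wide median. Cebpd, a transcription factor of the acute phase, was at 7.04, 7.08, 7.13 and 6.68 in COS and at 3.63, 5.69, 4.23 and 3.67 in CES, a log2 difference of −2.68 (limma, adjusted p = 0.00389). Rel, an NF-kappa-B subunit, was lower with −2.47 (limma, adjusted p = 0.00294) and the cytokine Il1b with −2.16 (limma, adjusted p = 0.00518). Il1b was at 1.21, −0.14, −0.69 and −0.28 in COS and at −2.09, −2.004, −1.42 and −3.02 in CES. Its probe was well above background in 3 COS rats and 2 CES rats, and its call was lost with normexp. In Cebpd CES replicate 2 lay 1.85 above the mean of the other CES rats and in Il1b 0.17, so these inducers differed in where that rat lay. The cytokines Il1a and Il6 were quantified and not called (limma, adjusted p = 0.391 and 0.172). Tnf was marked as well above background in a single rat of each group, and Ifng and Il1r1 in none. Among the 19 genes called were Nfkbia, Nfkbib and Nfkbie, which inhibit NF-kappa-B, with log2 differences of −1.34, −1.09 and −0.85. The count of 19 was 10 without COS replicate 3 and 5 after normexp.

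The list of chemokine processing, mRNA decay and scavenging held 15 genes, 14 of them quantified, of which limma called 9 lower and 0 higher, against 28.3% and 5.80% of all genes, with 14 lower and 0 higher at an unadjusted p under 0.05. The median log2 difference was −1.13, or −0.87 against the array-wide median. Sdc1, a heparan sulfate proteoglycan that binds chemokines at the cell surface, was at 5.41, 4.60, 5.48 and 4.35 in COS and at −0.21, 3.83, −0.77 and −1.29 in CES, a log2 difference of −4.57 (limma, adjusted p = 0.00730). Timp1, an inhibitor of metalloproteinases, was lower with −4.23 (limma, adjusted p = 0.00888) and Rhbdf2, a partner of Adam17, with −2.26 (limma, adjusted p = 0.00499). In Sdc1 and Timp1 CES replicate 2 lay 4.59 and 4.47 above the mean of the other CES rats, and without it their log2 differences were −5.88 and −5.39. The calls of all 3 were lost without COS replicate 3, and that of Timp1 also under 3 of the 4 other scalings and without CES replicate 1. Zfp36, which speeds the decay of cytokine and chemokine mRNAs, was not quantified and was well above background in all 4 COS rats and in 1 CES rat. The count of 9 was 2 without COS replicate 3, 3 after normexp and 5 after loess, with the deposited log2 table and with a scaling over spots that were valid throughout.

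**Figure D5:**
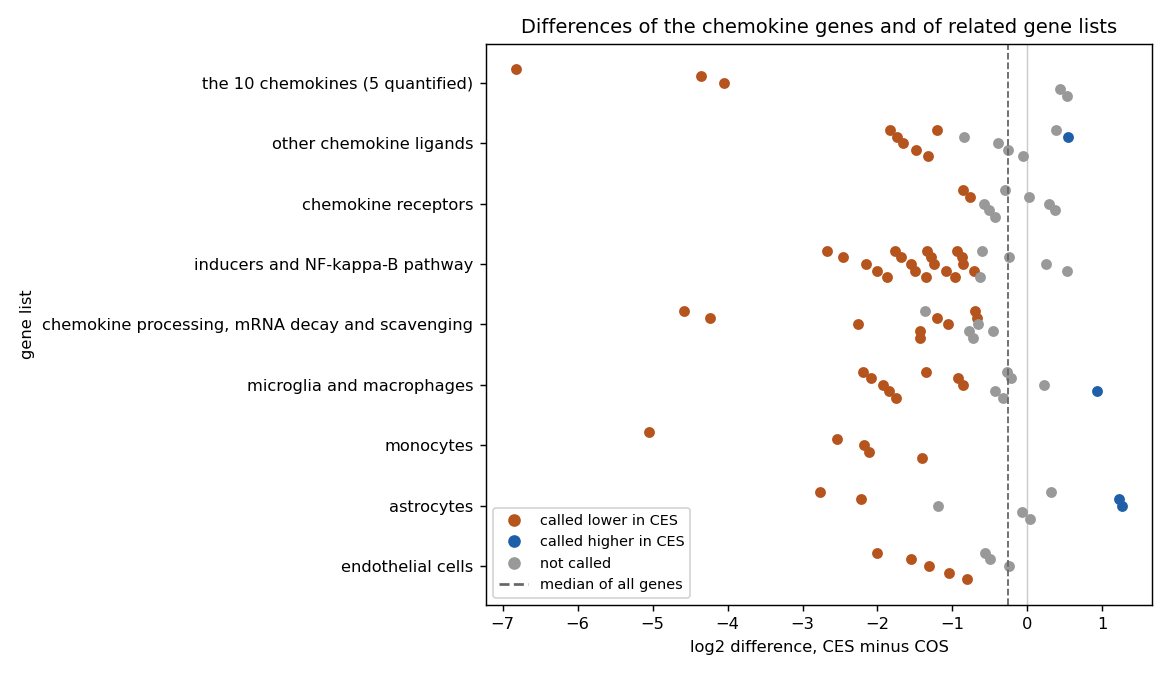
Log2 difference, CES minus COS (x axis), of each quantified gene, 1 point per gene, in the chemokines and in lists of related genes and cell markers (y axis); colours give limma's calls and the dashed line the median of all genes, −0.25. Ccl2, Cxcl1 and Cxcl10 lie left of every gene of the other ligand and receptor lists. They were chosen on this contrast, so nothing is read from their place. The inducers lie mostly left of the dashed line.

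Some markers of cells that can make chemokines were called as well, where 28.3% of all genes were called lower and 5.80% higher. Of 14 markers of microglia and macrophages, all quantified, limma called 8 lower in CES, among them Cd68 with a log2 difference of −2.19 (limma, adjusted p = 0.00489), and 1 higher, P2ry12 with 0.93 (limma, adjusted p = 0.00833). Their summed relative signal ran from 296 to 413 in COS and from 128 to 235 in CES, with the highest CES value in replicate 2. All 5 monocyte markers quantified were called lower, and their sum was 150 to 203 in COS, 58.4 in CES replicate 2 and 12.6 to 19.8 in the other CES rats. Cd14 had the largest difference of these, −5.05 (limma, adjusted p = 0.00484), while the defining marker Ccr2 was well above background in no rat. The part of these cells in the chemokine differences was not tested.

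Of the neutrophil markers S100a8 and S100a9 were well above background in 3 COS rats and 1 CES rat, and Mpo, Elane and Mmp8 in none. The 2 neutrophil and the 2 lymphocyte markers quantified were not called, with 0 of each at an unadjusted p under 0.05, and Cd4, Cd8a and Cd79a were well above background in no rat. Among 8 astrocyte markers limma called 2 lower, Vim with −2.76 (limma, adjusted p = 0.0101) and S100b. It called 2 higher, Gja1 with 1.27 (limma, adjusted p = 0.0341) and Aldh1l1. For this and the following marker lists too, 28.3% of all genes were called lower and 5.80% higher. The count of astrocyte markers called lower was near that share. The astrocyte sum was 334 to 377 in COS and 174 to 287 in CES. Of 8 endothelial markers 5 were called lower, Vwf most with −2.01 (limma, adjusted p = 0.0119), and the sum was 50.7 to 78.6 in COS and 21.4 to 51.4 in CES, highest in replicate 2. Of 6 markers of meninges and fibroblasts Dcn was called higher with 0.93 (limma, adjusted p = 0.0323) and Col1a2 lower with −1.0003 (limma, adjusted p = 0.0214). Of 5 choroid plexus markers 0 were called, with 0 at an unadjusted p under 0.05, and their sum spread from 13.1 to 616 in COS and from 16.2 to 194 in CES. Of 5 granule neuron markers Neurod1 was called higher with 1.16 (limma, adjusted p = 0.00516) and 3 lower, Dsp most with −1.24 (limma, adjusted p = 0.00701). Another of these 3 is Tdo2, whose probe was well above background in no rat. Of the marker genes given with an adjusted p, Neurod1 alone kept its call without COS replicate 3, and Vim, Vwf, Gja1, Col1a2 and Dcn lost theirs also without CES replicate 1. Under the 4 other scalings Vim, Vwf, Gja1 and Col1a2 were not called, nor was Dsp under 2 of them. With normexp the calls of Neurod1, P2ry12, Dsp, Gja1, Col1a2 and Dcn were lost.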

How the data were processed

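Total RNA of each rat was hybridized with Agilent 2-colour rat arrays. The authors deposited scanner files that hold the mean, median and local background intensity of each spot per channel, extracted with Agilent Feature Extraction 10.7.3.1 (from the submitters' processing notes) before normalization, and a table of log2 values. Checked against the scanner files, each column of the deposited log2 values was the logarithm of the background-subtracted median signal, shifted by a constant. No spot was saturated.

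Following the study's methods, the mean signal minus the background median of spots whose foreground was 2 times background or more in all 8 rats (27642 spots) was scaled by the median valid spot of the same label, averaged over the spots of a gene name and taken to log2. The authors' later iterative renormalization was not applied. The groups were compared two-sided with limma 3.58.1 (R 4.3.3), dye entering as a fixed effect and array as a random block (statmod 1.5.0, estimated correlation −0.0064), and with an adjusted p threshold of 0.05. The fit was tested on simulated data. Python 3.11.15, data.table (1.17.8), numpy 2.4.6, pandas 2.3.3 and matplotlib 3.10.9 were also used. A gene was well above background in a rat where the software had set that mark for more than 50% of the spots of at least 1 probe. The number of arrays limits the precision. The labels name the samples as replicates, and p-values measure the spread between these 8 rats.

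The chemokine genes and all lists were chosen with earlier results of these data known. Named besides the 10 chemokines are, per list, the called genes with the largest difference, at most 3 per direction (1 for markers), the receptors of the chemokines, and the 3 genes nearest to each quantified chemokine. Genes named for detection alone, and S100b, Aldh1l1, Ccr1l1, Il1a, Il6, Nfkbia, Nfkbib and Nfkbie, were added after their values were seen. A few genes that these rules name are not reported here.

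Same-numbered COS and CES rats deviated together (r of 0.21 to 0.34), but they share the dye, and with the dye removed r was −0.06 to −0.04. Alternatives were normexp with an offset of 50, the processed signal, loess with Aquantile, quantile normalization, no filter, a stricter foreground (3 times background), the well above background mark in all rats, a fit without array or without dye, a fit with a replicate block, the brightest probe, the methods' t-test, the deposited log2 values, and each rat left out in turn. A scaling over spots valid throughout was chosen after seeing the data. The 4 other scalings are this one, loess with Aquantile, quantile normalization and the deposited log2 values.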

Additional observations from a re-analysis of the deposited data

Results flagged for a closer look

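Of 70 groups of 4 rats tested for a rat far from the others, 2 held one, where chance alone marks about 5% of groups. The CES level of Cxcl12 was 3.03 in replicate 2 and 3.75 to 3.86 in the other CES rats on the log2 scale. The CES level of Vim, an intermediate filament of reactive astrocytes, was 7.05 in replicate 2 and 3.58 to 3.88 in the other CES rats. In both genes this rat lay near the COS levels.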

How the results depend on the processing

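All chemokine differences kept their sign under every setting that gave a value. Ccl2 ranged from −8.48 to −5.39, Cxcl2 from −4.79 to −1.54, Ccl20 from −3.39 to −0.82, Cxcl12 from 0.19 to 0.93 and Cx3cl1 from 0.26 to 0.83. Differences moved by more than the spread between replicates with normexp, to −3.08 for Ccl3, −1.78 for Ccl4, −0.82 for Ccl20, −2.98 for Cxcl1 and −1.54 for Cxcl2, and under the 4 other scalings for Cx3cl1, to between 0.74 and 0.83. Of the genes named outside the 10 chemokines, 25 were followed through every setting that gave a value. They kept their direction, but 121 of 537 values lost the call and 10 gained it.

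The share of calls that were higher depended on the scaling. Against 1238 higher and 6038 lower calls in the main setting, loess with Aquantile gave 3157 and 1843, quantile normalization 3173 and 2151, the deposited log2 values 3275 and 1927, and scaling over spots valid in all rats 3348 and 1718. The cause was not tested.

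Over all genes 7276 were called, 586 with normexp and 3196 without the filter. By the methods' t-test 0 were called after Benjamini-Hochberg adjustment over the 21332 genes, which is not the correction the methods used, with 6103 at an unadjusted p under 0.05, where limma had 9633. The methods' fold-change criterion was not applied. By that test 0 chemokines, other ligands, receptors, inducers and processing genes were called either, with 4, 6, 1, 19 and 7 at an unadjusted p under 0.05. Beside the 3 chemokines called, all lower, 8 of 10 were called without the filter and 5 of 5 under each of the 4 other scalings. With a foreground of 3 times background and with the well above background mark only Cxcl12 and Cx3cl1 were quantified, so none of the 3 was tested, and 0 (limma, 2 at an unadjusted p under 0.05) and 1, higher, were called. The 7 other ligands called became 1 with normexp, 4 with a foreground of 3 times background and 3 with the mark. The 2 receptors became 0 with normexp (limma, 0 at an unadjusted p under 0.05), 4 with the processed signal and, under each of the 4 other scalings, 1, called higher and not lower. The 19 inducers became 5 with normexp. The 9 processing genes became 3 with normexp and 5 with loess, the deposited table and scaling over spots valid in all rats.

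Leaving out 1 rat gave 1171 (without COS replicate 3) to 8837 genes (without CES replicate 2), 0 to 4 chemokines, 3 to 8 other ligands, 0 to 4 receptors, 10 to 20 inducers and 2 to 13 processing genes, the lowest count always without COS replicate 3, for receptors also without COS replicate 1 or CES replicate 1. With the replicate block in place of dye and array, 7865 genes, 3 chemokines, 8 other ligands, 3 receptors, 19 inducers and 13 processing genes were called, and this paired fit lost the calls of Gja1 and Dcn among the genes named.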
